A study of Mus musculus with 10 samples.

Results

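The genes of the Cxcr3 and Cxcr6 chemokine axes were examined in 10 mouse melanomas. They were chosen by name, as the receptor *Cxcr3* with its ligands *Cxcl9*, *Cxcl10* and *Cxcl11*, and the receptor *Cxcr6* with its ligand *Cxcl16*. These 6 genes, of 770 on a NanoString panel of mouse cancer immunity genes (750 endogenous and 20 reference genes), were all measured, each by 1 probe. YUMMER1.7, a *Braf*-mutant mouse melanoma line without *Cdkn2a* and with a high load of mutations, was injected under the skin of male C57BL/6 mice 6 to 10 weeks old. This age is the paper's range for all its mice, and its legend for tumor growth gives a younger range. The hosts were either wild type (WT) or *Siah2* KO (Siah2-/-), a genotype without the ubiquitin ligase Siah2, and tumor RNA was taken 11 days after injection per the labels, a day later than the paper's legend states. The injected cells were the same for both genotypes, so *Siah2* was missing from all cells of the host and not from the cancer cells. There were 5 tumors in each group, numbered WT replicates 2 to 6 and KO replicates 1, 2, 3, 5 and 6. The labels do not name the mouse behind each tumor, and the p-values given here measure the spread between these tumors. A design text of the series names another cell line and another knockout, whereas every sample label names YUMMER1.7 and *Siah2*. The panel holds no *Siah2* probe, so the genotype could not be checked in these data.

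Chemokines are small secreted proteins that guide leukocytes by binding G protein-coupled receptors. *Cxcl9*, *Cxcl10* and *Cxcl11* are induced by interferons, *Cxcl9* mostly by interferon gamma, and draw cells bearing Cxcr3, which is carried by activated CD8+ T cells, T helper 1 cells and NK cells. *Cxcl16* is made as a membrane-bound chemokine by macrophages, dendritic cells and other cells, and also acts as a scavenger receptor. Its receptor Cxcr6 is carried by effector and tissue-resident T cells, invariant NKT cells and some NK and innate lymphoid cells. In a bulk tumor, more cells of a type and more RNA per cell cannot be told apart.

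The 3 *Cxcr3* ligand genes lie side by side on mouse chromosome 5 (GRCm38.p6 in RefSeq), *Cxcl9* at chr5:92321331-92328079, *Cxcl10* at chr5:92346638-92348889 and *Cxcl11* at chr5:92359544-92363296. RefSeq classes *Cxcl11* as a transcribed pseudogene in this build, which is of the C57BL/6J strain, so its probe counts RNA and not a chemokine made from it. *Cxcr3* lies at chrX:101731535-101734147, *Cxcl16* at chr11:70454389-70459984 and *Cxcr6* at chr9:123806477-123811754.

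Promoter sequences were found for 4 of the 6 genes, *Cxcl9*, *Cxcl10*, *Cxcr3* and *Cxcr6*. Each entry holds the 250 bases before the start site and a short stretch after it. Whole entries were searched on both strands for 3 patterns. These were TTCNNNGAA, the gamma-activated site of interferon gamma target genes, GAAANNGAA, the core of the interferon-stimulated response element, and the NF-kB motif. The promoters of *Cxcl9* and *Cxcl10* are shown because the response element core lay in both, while none of the 3 patterns lay in the entries of *Cxcr3* and *Cxcr6*. The 250 bases before their start sites are printed 5′ to 3′ on the minus strand, which both shown genes use. They are from chr5:92328080-92328329 for *Cxcl9* and chr5:92348890-92349139 for *Cxcl10*, with the matched letters in capitals.

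Cxcl9: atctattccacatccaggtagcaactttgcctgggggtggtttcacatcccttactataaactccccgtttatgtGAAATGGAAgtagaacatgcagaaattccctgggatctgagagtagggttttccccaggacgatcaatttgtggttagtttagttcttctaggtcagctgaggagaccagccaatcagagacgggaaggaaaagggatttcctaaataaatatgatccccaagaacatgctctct

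Cxcl10: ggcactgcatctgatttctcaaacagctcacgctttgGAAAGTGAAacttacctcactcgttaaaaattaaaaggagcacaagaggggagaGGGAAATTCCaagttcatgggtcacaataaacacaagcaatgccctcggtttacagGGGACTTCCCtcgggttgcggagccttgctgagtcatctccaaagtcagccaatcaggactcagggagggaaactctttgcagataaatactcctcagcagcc

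In *Cxcl9* the capitals mark 1 response element core, GAAATGGAA, at bases -175 to -167 from the start site. In *Cxcl10* they mark 1 response element core, GAAAGTGAA, at -213 to -205, and 2 NF-kB matches, GGGAAATTCC at -159 to -150 and GGGACTTCCC at -103 to -94. Among 32851 mouse promoters, the whole entry, with its bases after the start site, held the response element core in 8.56%. It held the gamma-activated site in 8.30% and the NF-kB motif in 4.51%. These matches are a description of the letters and not of bound sites.

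All values are normalized counts, scaled by the submitters to the 20 reference genes after a background was subtracted, with a floor of 1. The sum over the 770 genes was between 512955 and 585366 in WT and between 575773 and 741789 in *Siah2* KO tumors. The scaling factor was between 0.918 and 1.32 in WT and between 1.03 and 1.60 in KO tumors, so it moved with the groups. *Ptprc*, the pan-leukocyte phosphatase CD45, rose in KO tumors, from 745 to 950.0 normalized counts in WT to 1224 to 1918 in KO, by 0.78 on the log2 scale (adjusted p = 0.0020, limma). Its difference was 0.38 with quantile normalization (adjusted p = 0.014) and did not pass with scaling to the positive control probes (0.61, adjusted p = 0.27). The part of leukocyte content in the results was not tested.

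Of the 6 genes, 5 rose in *Siah2* KO tumors at an adjusted p under 0.05 and 0 fell, with *Cxcl10* the one that did not pass. Over all 770 genes, 41.0% passed in either direction and 31.3% were higher in KO. The receptor *Cxcr6* rose most, 3.24-fold, followed by *Cxcr3* at 2.10-fold and *Cxcl16* at 1.79-fold, and in these 3 genes every KO tumor lay above every WT tumor, as in 24.5% of all genes. The interferon-induced ligands had smaller differences, 1.72-fold for *Cxcl9*, 1.62-fold for *Cxcl11* and 1.49-fold for *Cxcl10*, and the groups overlapped in all 3. The median log2 difference was 0.81 over the 6 genes and 0.24 over all 770.

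**Figure D1:**
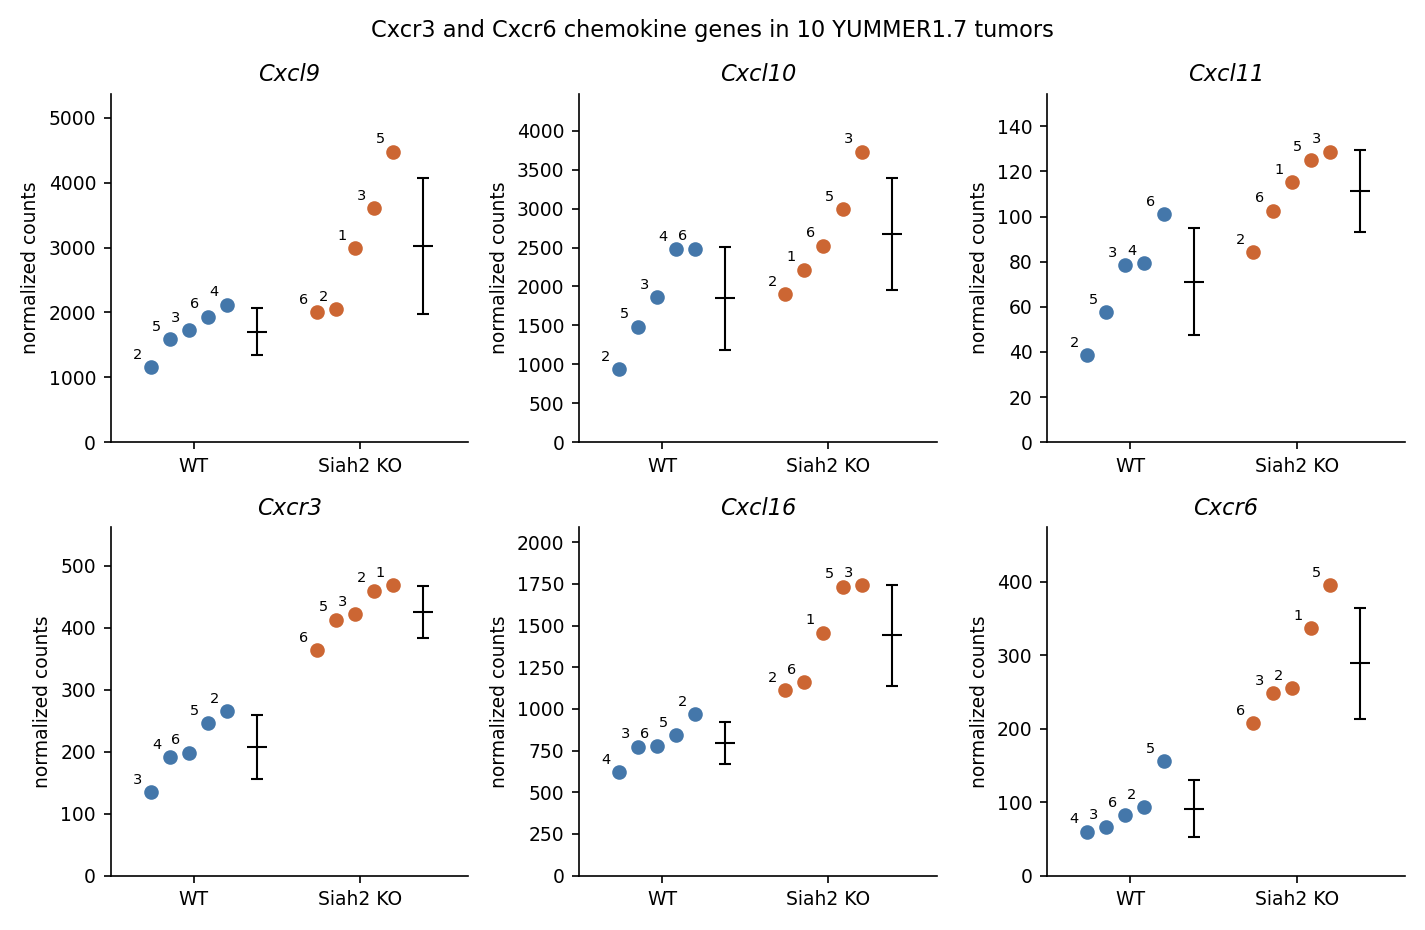
Normalized counts (vertical axes, each from 0) of the 6 genes in the 5 WT (blue) and 5 *Siah2* KO (orange) tumors, ordered by value within a group and marked with replicate numbers, with mean and SD as bars. The groups are apart for *Cxcr3*, *Cxcl16* and *Cxcr6* and overlap for *Cxcl9*, *Cxcl10* and *Cxcl11*.

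*Cxcl9*, the ligand most tied to interferon gamma, measured 1158, 1724, 2121, 1588 and 1937 normalized counts in WT replicates 2 to 6. It measured 2993, 2049, 3601, 4478 and 2004 in KO replicates 1, 2, 3, 5 and 6. KO replicates 1, 3 and 5 lay above all WT tumors, while KO replicates 2 and 6 lay among the upper WT tumors. The means were 1705 ± 367 in WT and 3025 ± 1053 in KO (SD, n = 5 each), and the log2 difference was 0.79 (SE 0.25, adjusted p = 0.030 by limma). An exact permutation test over the 252 divisions of the tumors, two-sided, gave p = 0.024. The call was lost without any 1 of WT replicates 2, 3 and 5 or KO replicates 1, 3 and 5, where the difference was between 0.63 and 0.80.

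*Cxcl10*, the ligand induced by both types of interferon, measured 938, 1860.4, 2476, 1482 and 2488 normalized counts in WT replicates 2 to 6. It measured 2216, 1899, 3733, 2995 and 2526 in KO replicates 1, 2, 3, 5 and 6. The highest WT tumors, replicates 4 and 6, lay above KO replicates 1 and 2, so the groups overlapped through their middle. The means were 1849 ± 664 and 2674 ± 717 (SD, n = 5 each). The log2 difference was 0.58 (SE 0.29) and did not pass, with an adjusted p of 0.13 by limma and p = 0.095 by the exact permutation test. It was between 0.36, without WT replicate 2, and 0.71 with each tumor left out in turn.

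*Cxcl11* measured 38.7, 78.3, 79.25, 57.8 and 101 normalized counts in WT replicates 2 to 6. It measured 115, 84.1, 129, 125 and 103 in KO replicates 1, 2, 3, 5 and 6. Only KO replicate 2 lay below the highest WT tumor, replicate 6. The means were 71.0 ± 23.7 and 111 ± 18.2 (SD, n = 5 each), with a log2 difference of 0.69 (SE 0.24, adjusted p = 0.041 by limma, exact permutation p = 0.016). This call was lost without any 1 of WT replicates 2, 3, 4 and 5 or KO replicates 1, 3, 5 and 6, where the difference was between 0.50 and 0.75.

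*Cxcr3* is the receptor of the *Cxcl9* and *Cxcl10* products, and of that of *Cxcl11* where it is not a pseudogene. *Cxcr3* measured 266, 135, 191, 247 and 198 normalized counts in WT replicates 2 to 6. It measured 469, 460.2, 422, 413 and 364 in KO replicates 1, 2, 3, 5 and 6. The lowest KO tumor was 1.37 times the highest WT tumor, and the KO tumors were close together, with a coefficient of variation of 9.84% against 24.8% in WT. The means were 207 ± 51.3 and 426 ± 41.9 (SD, n = 5 each). The log2 difference was 1.07 (SE 0.17, adjusted p = 0.0012 by limma), and the exact permutation p was 0.0079, the smallest that 5 against 5 tumors can give.

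*Cxcl16*, the transmembrane ligand, measured 971, 773, 622, 842 and 776 normalized counts in WT replicates 2 to 6. It measured 1457.5, 1112, 1743, 1733 and 1161 in KO replicates 1, 2, 3, 5 and 6. KO replicates 2 and 6 were the nearest to the WT tumors, and the lowest KO tumor was 1.15 times the highest WT tumor. The means were 797 ± 126 and 1441 ± 301 (SD, n = 5 each), a log2 difference of 0.84 (SE 0.17, adjusted p = 0.0030 by limma, exact permutation p = 0.0079).

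*Cxcr6*, its receptor, measured 93.3, 65.6, 60.0, 155 and 82.8 normalized counts in WT replicates 2 to 6. It measured 337, 255, 249, 396 and 208 in KO replicates 1, 2, 3, 5 and 6. WT replicate 5 stood above the other WT tumors, and even so the lowest KO tumor, replicate 6, was 1.34 times as high. The means were 91.4 ± 38.2 and 289 ± 75.9 (SD, n = 5 each), and the log2 difference of 1.70 (SE 0.27, adjusted p = 0.0011 by limma, exact permutation p = 0.0079) ranked 25 among the 770 genes. *Cxcr3* ranked 72, *Cxcl16* 125, *Cxcl9* 143, *Cxcl11* 176 and *Cxcl10* 231 on the same list.

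The size of these differences depended on how the tumors were scaled. Scaling to the median of the endogenous genes moved the median log2 difference of all genes from 0.24 to -0.03, and quantile normalization moved it to -0.04. With median scaling 3 of the 6 genes rose, against 21.3% of all genes, namely *Cxcr6* (1.43), *Cxcr3* (0.80) and *Cxcl16* (0.58). The ligands *Cxcl9* (0.52, adjusted p = 0.065), *Cxcl11* (0.43, adjusted p = 0.14) and *Cxcl10* (0.31, adjusted p = 0.37) did not pass. The same 3 genes passed with quantile normalization, where 153 of all 770 genes were higher. With scaling to the positive control probes, spiked-in targets that do not depend on the tumor's RNA, *Cxcr6* alone of the 6 genes passed (1.53, adjusted p = 0.0030, limma), against 7.79% of all genes. For this scaling the genes were divided by the tumor's scaling factor, while the control values were used as deposited. If the control values carry that factor too, the scaling still depends on the reference genes, which was not tested. *Cxcr6* was higher in KO at an adjusted p of at most 0.0099 under all 11 alternatives other than leaving out a tumor, and at most 0.0035 without any single tumor. All 6 differences were above 0 under each of the 4 scalings, and of the genes named from lists that passed, 0 had the other sign under another scaling.

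**Figure D2:**
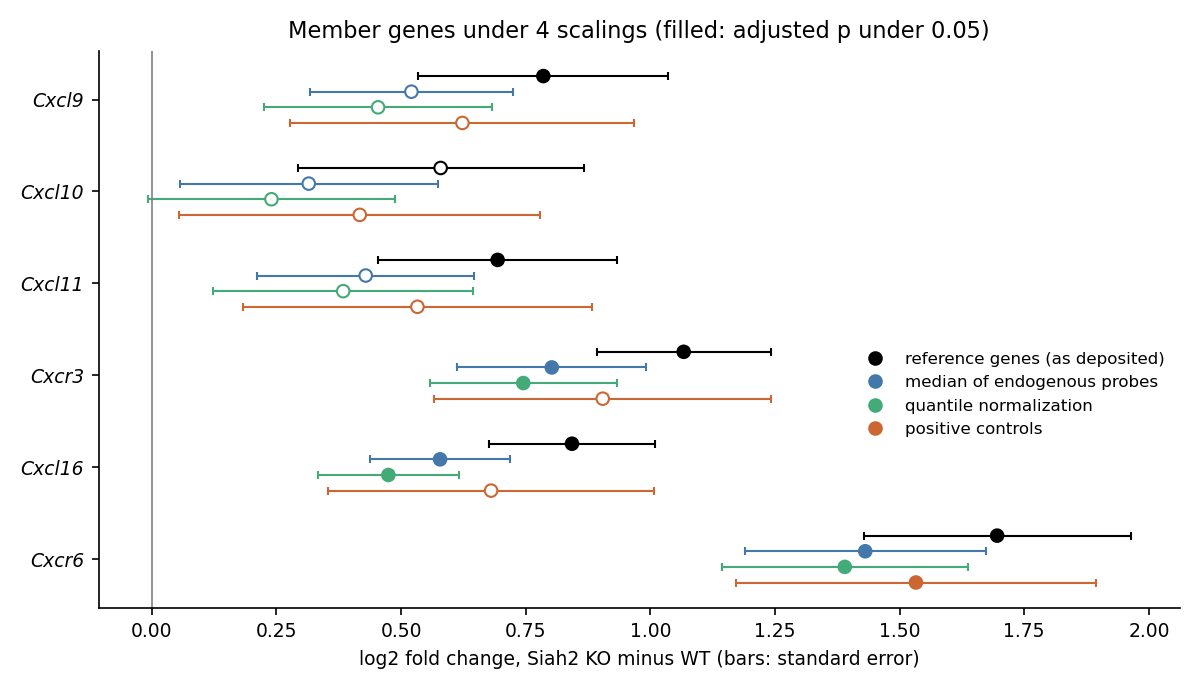
Log2 fold change, *Siah2* KO minus WT (horizontal axis, bars are SE), of the 6 genes under 4 scalings, with filled points for an adjusted p under 0.05. *Cxcr6* is filled under all 4, *Cxcr3* and *Cxcl16* under 3, *Cxcl9* and *Cxcl11* under the deposited scaling, and *Cxcl10* under none.

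Among themselves the genes did not order the tumors alike. WT replicate 2 was the lowest WT tumor for all 3 *Cxcr3* ligands and the highest for *Cxcr3* and *Cxcl16*. Among KO tumors, replicate 3 was highest for *Cxcl10*, *Cxcl11* and *Cxcl16*, and replicate 5 for *Cxcl9* and *Cxcr6*. KO replicate 6 was the lowest for *Cxcl9*, *Cxcr3* and *Cxcr6*. As a measure of likeness, the root mean square difference of the log2 values over the 10 tumors was taken after centring each gene on its own mean, so that 0 is the same pattern. It was smallest for *Cxcl10* and *Cxcl11* (0.18), and 0.26 for *Cxcl9* with *Cxcl11* and 0.30 for *Cxcl9* with *Cxcl10*. The receptors *Cxcr3* and *Cxcr6* were 0.45 apart, and *Cxcr3* was nearer to *Cxcl16* (0.31) than to any of its own ligands (0.53 to 0.67). *Cxcl10* and *Cxcr6* were the farthest apart of the 15 pairs, at 0.89.

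Differences between genes of the same tumor depend little on that tumor's scaling factor, and 8 such differences were compared between the groups by an exact permutation test with Benjamini-Hochberg adjustment over the 8. Each is a difference of log2 values, and because probes bind with their own efficiency it has a meaning only between groups. *Cxcr6* relative to the T cell receptor genes *Cd3d*, *Cd3e* and *Cd3g* was -0.51, -0.76, -0.80, 0.23 and -0.30 in WT replicates 2 to 6. It was 0.37, 0.44, 0.50, 0.50 and 0.48 in KO replicates 1, 2, 3, 5 and 6. All KO tumors lay above all WT tumors and within a narrow band, with an SD of 0.056 against 0.42 in WT. The difference of 0.88 (SE 0.19), or 1.84-fold, had an exact permutation p of 0.0079 and an adjusted p of 0.063. Over 9 T cell genes the log2 differences ran from -0.29 for *Cd4* to 1.76 for *Cd8b1*, beside 1.70 for *Cxcr6*. The value thus depends on the choice of *Cd3d*, *Cd3e* and *Cd3g* as the reference. *Cxcr3* relative to the same 3 genes differed by 0.25 (SE 0.20, exact permutation p = 0.28, adjusted p = 0.37), with overlapping groups.

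*Cxcr6* was also higher in KO relative to its ligand *Cxcl16*, by 0.85 (SE 0.24), and relative to *Cxcr3*, by 0.63 (SE 0.23). The exact permutation p was 0.024 and 0.032, and the adjusted p was 0.063 for both. *Cxcl16* relative to the mean of the macrophage genes *Csf1r* and *Cd68* was 0.42 higher (SE 0.12, exact permutation p = 0.024, adjusted p = 0.063). This is an average over 2 genes that moved apart, with log2 differences of -0.02 for *Csf1r* and 0.87 for *Cd68* beside 0.84 for *Cxcl16* itself. None of the 8 differences passed at an adjusted p of 0.05 with all 10 tumors. Without WT replicate 5, the WT tumor highest for *Cxcr6*, the 3 *Cxcr6* differences passed, at 1.05 relative to the *Cd3* genes, 1.04 relative to *Cxcl16* and 0.77 relative to *Cxcr3*. Without any other single tumor they did not pass (adjusted p between 0.063 and 0.13), nor over the 8 tumors whose numbers occur in both groups (adjusted p = 0.23). Over those 8 tumors a difference without overlap has an exact permutation p of 0.029, which alone adjusts to 0.23. With all 10 tumors it has 0.0079, which alone adjusts to 0.063, so at neither size could a difference pass on its own.

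*Cxcr3* relative to the mean of its 3 ligand genes, with *Cxcl11* counted as RNA only, differed by 0.38 (SE 0.39, exact permutation p = 0.36, adjusted p = 0.41). *Cxcl16* set against the same 3 genes differed by 0.16 (SE 0.31, exact permutation p = 0.65, adjusted p = 0.65). Single tumors decided both values. Without WT replicate 2 they were 0.66 and 0.42, *Cxcr3* was 0.21 without WT replicate 3, and *Cxcl16* was -0.02 without WT replicate 4 and -0.04 over the 8 tumors whose numbers occur in both groups. The tumors of each genotype were spread differently in the latter. *Cxcl16* relative to *Cxcl9*, *Cxcl10* and *Cxcl11* lay between -0.27 and 1.47 in WT and between 0.53 and 0.68 in KO tumors, an SD of 0.68 against 0.079.

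**Figure D3:**
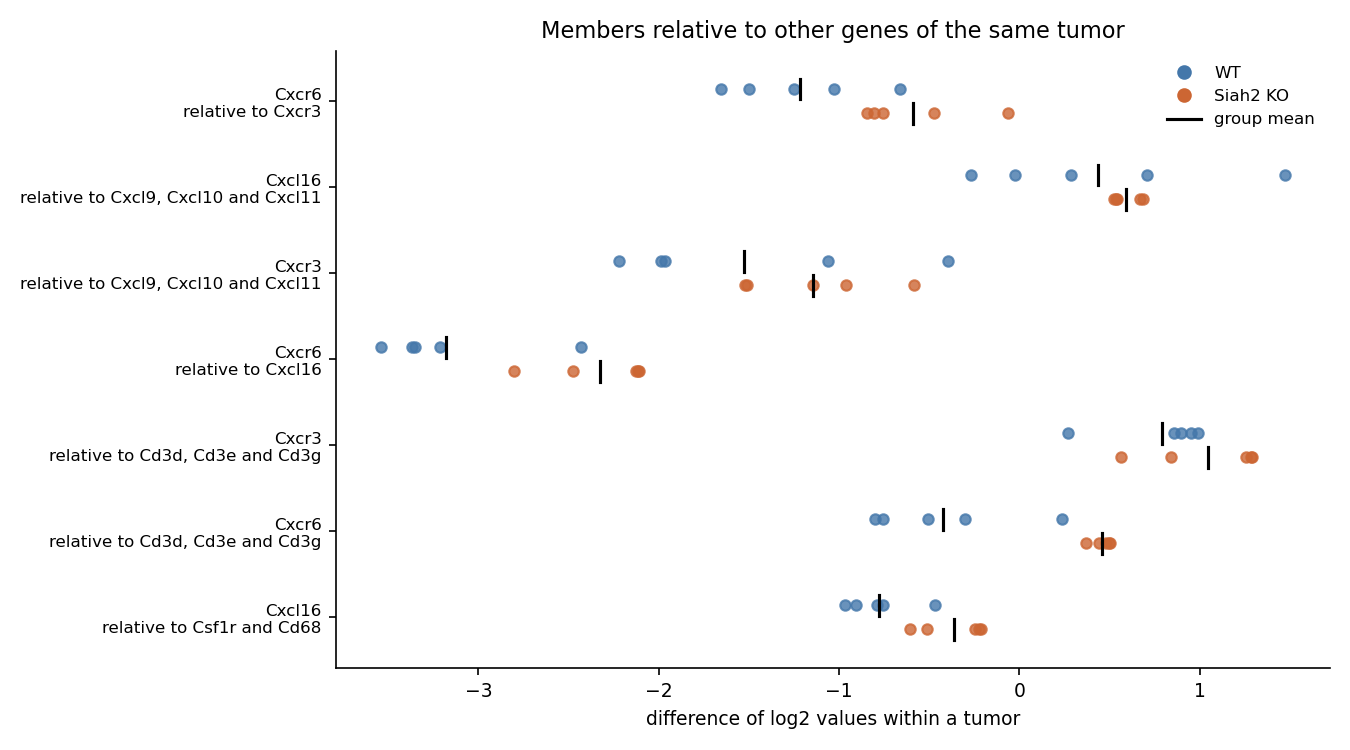
Of the 8 differences of log2 values between genes of the same tumor (horizontal axis), the 7 described are plotted with 1 point per tumor, WT in blue and *Siah2* KO in orange, and group means as bars. *Cxcr6* relative to *Cd3d*, *Cd3e* and *Cd3g* is the one set without overlap, and *Cxcl16* relative to the *Cxcr3* ligands has 5 KO points close together within the WT range.

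The pathway that induces the *Cxcr3* ligands was read from 14 measured genes of interferon gamma signalling, of 15 listed. Of these, 8 rose, 1 fell and 5 did not pass, with a median log2 difference of 0.78 against 0.24 over all genes. *Ifng*, the cytokine itself, measured 16.6, 10.1, 13.2, 11.6 and 6.65 normalized counts in WT replicates 2 to 6. It measured 51.9, 29.7, 77.02, 61.6 and 25.3 in KO replicates 1, 2, 3, 5 and 6. All KO tumors lay above all WT tumors. Within WT the order was not that of the ligands. WT replicate 2 was the highest WT tumor for *Ifng* and the lowest for *Cxcl9*, *Cxcl10* and *Cxcl11*. These WT values of *Ifng* were low, at 6.65 to 16.6. Within KO, replicates 3 and 5 were the highest for *Ifng* and for each of the ligands. The log2 difference of *Ifng* was 1.92 (adjusted p = 0.0015, limma).

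Downstream, *Irf1* (0.91), an interferon-induced transcription factor, *Irf8* (0.70), a factor of myeloid cells that interferon gamma induces, and *Socs1* (0.98), an inhibitor of the kinases, rose at an adjusted p between 0.0015 and 0.0083. The receptor subunit *Ifngr1* and the kinases *Jak1* and *Jak2* had log2 differences of -0.0007, 0.05 and 0.18 and did not pass. With quantile normalization they were lower, at -0.44, -0.37 and -0.25 (adjusted p = 0.0051, 0.0034 and 0.021, limma), so the direction of *Jak1* and *Jak2* turned with the scaling. Among the interleukin 12 and 18 genes, which promote *Ifng* production, the receptor chains *Il12rb1* (1.54), *Il12rb2* (2.44) and *Il18r1* (0.99) rose. The shared cytokine subunit *Il12b* fell by 0.86, with an adjusted p of 0.017, from 46.1 ± 4.59 to 26.6 ± 12.7 normalized counts (SD, n = 5 each). With positive control scaling 3 of the 14 genes were higher and 0 lower, namely *Ifng* (1.76), *Il12rb2* (2.27) and *Il12rb1* (1.38), and with quantile normalization 8 were higher and 4 lower.

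The other CXC chemokines and receptors served as a comparison within the family. Of 13 measured genes of 16 listed, 5 rose, 0 fell and 8 did not pass, with a median of 0.64, and 8 of the 13 had a mean under 20 normalized counts. Over all 770 genes, 31.3% were higher in KO. *Cxcl1* (1.05), *Cxcl2* (2.49) and *Cxcl3* (2.71), which draw neutrophils through *Cxcr2*, rose, the last 2 from near the floor. *Cxcl3* went from 1.94 to 29.6 normalized counts on average, with KO replicate 6 at 1.03, within the WT range. *Cxcl12*, a chemokine of stromal cells, rose by 0.87 (adjusted p = 0.0046, limma), and its receptor *Cxcr4* by 0.64 (adjusted p = 0.046, limma). *Cxcr4* did not pass with median scaling (0.38, adjusted p = 0.16). With quantile normalization 4 of the 13 were higher and 1 lower, *Cxcl14*, an epithelial chemokine, at -0.44. With positive control scaling 2 were higher, *Cxcl2* and *Cxcl3*.

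**Figure D4:**
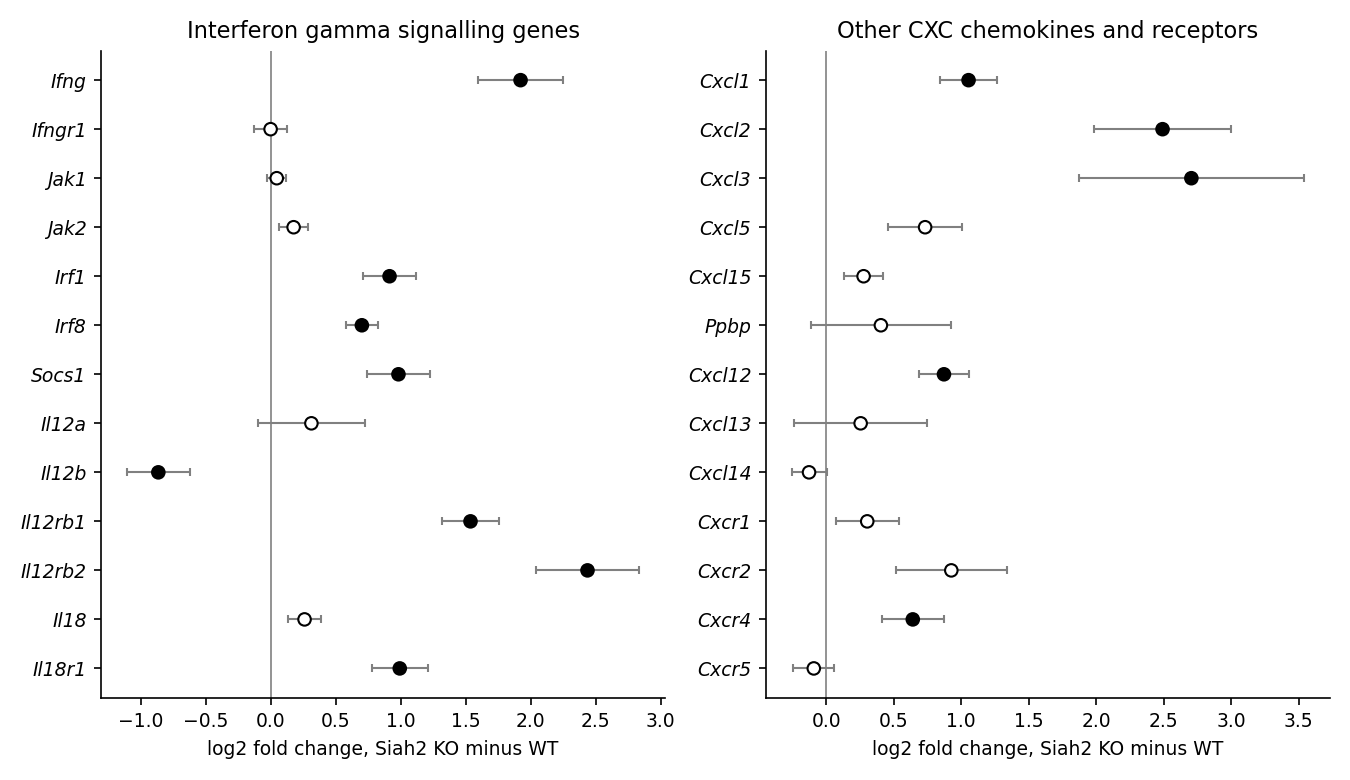
Log2 fold change, *Siah2* KO minus WT (horizontal axes, bars are SE), of 13 of the 14 measured interferon gamma signalling genes (left) and the 13 other CXC chemokine and receptor genes (right), with filled points for an adjusted p under 0.05. *Ifng*, *Il12rb1* and *Il12rb2* are among the largest on the left, where *Il12b* alone is filled below 0.

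Cells that carry these receptors were followed by their own genes. Of 13 measured genes of type 1 lymphocytes, the cells in which Cxcr3 is typical, 4 rose, 2 fell and 7 did not pass, with a median of 0.42. The 4 that rose are a share near the 31.3% of all genes higher in KO. *Tbx21*, the T-bet factor that drives *Cxcr3* in T helper 1 cells, rose by 0.93 (adjusted p = 0.0033), *Klrk1*, the activating receptor NKG2D, by 0.87, *Runx3*, a factor of CD8+ T cells, by 0.80 and *Il2rb*, a chain of the interleukin 2 and 15 receptors, by 0.66. *Itgae*, the integrin chain CD103 of tissue-resident T cells and some dendritic cells, fell by 1.15 (adjusted p = 0.023), and *Itga1*, the CD49a chain, fell by 0.49 (adjusted p = 0.019). *Itga1* averaged 522 normalized counts in WT, and which cells of the tumor carried it was not tested. *Il2rb* and *Itga1* are named from their values, as they lay outside the naming rule. With positive control scaling 0 of the 13 were higher and *Itgae* was lower.

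Of 9 T cell genes, 5 rose, 0 fell and 4 did not pass, with a median of 0.72, and their summed level was 549 to 730 normalized counts in WT and 745 to 1311 in KO. *Cd8b1* (1.76) and *Cd8a* (1.13), the chains of the CD8 coreceptor, and *Cd3g* (0.93), *Cd3e* (0.80) and *Cd3d* (0.71) rose. *Cd8b1* was low in WT, with a mean of 10.2 normalized counts. *Cd4* measured -0.29 and did not pass (adjusted p = 0.19), but was lower with median scaling (-0.55, adjusted p = 0.0053) and quantile normalization (-0.59, adjusted p = 0.0052). Of 6 NK cell genes, 5 rose and 1 did not pass, with a median of 0.79, and their sum was 925 to 1181 in WT and 1621 to 2500 in KO. *Klrc1* (1.49) and *Klrb1c* (1.17), both NK receptors, had the largest differences, while *Klra1*, an NK receptor too, was at or near the floor in both groups. Of 4 measured genes of invariant NKT and innate lymphoid cells, *Il7r*, the interleukin 7 receptor, rose by 1.97 (adjusted p = 0.0012) and 3 did not pass, with a median of 0.49. With positive control scaling 1 of the 9 T cell genes and 2 of the 6 NK cell genes were higher, and with median scaling 2 of the T cell genes were lower, *Cd4* and *Cd6*. The part of these cell types in the *Cxcr3* and *Cxcr6* values was tested no further than by the values relative to *Cd3d*, *Cd3e* and *Cd3g*.

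On the side of the cells that make *Cxcl16*, 2 of 6 measured macrophage genes rose, 2 fell and 2 did not pass, with a median of 0.13, which was -0.14 with median scaling. The share of all 770 genes higher in KO was 31.3%. *Cd68*, a lysosomal protein of macrophages, rose by 0.87 and *Marco*, a scavenger receptor, by 0.84, while *Cd163* fell by 1.86 and *Mrc1*, the mannose receptor, by 0.89. The sum of the 6 was 5524 to 7178 normalized counts in WT and 5106 to 8287 in KO, with overlap. Of 5 dendritic cell genes 1 rose, *Itgax*, the CD11c integrin, by 0.86, and 4 did not pass, with a median of -0.29 and a sum of 575.0 to 697 in WT and 470.4 to 734 in KO. With median scaling and with quantile normalization 3 dendritic cell genes were lower, *Flt3*, *Ccr7* and *Cd83*, and the median was -0.56 and -0.60. With positive control scaling 0 macrophage and 0 dendritic cell genes were higher.

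Of the proteases that act on these chemokines, 2 of 4 listed were measured, with a median of -0.94. *Mmp9*, a gelatinase that cleaves several CXC chemokines, fell by 1.49 (adjusted p = 0.0085, limma), from 68.5 ± 8.33 to 27.1 ± 15.1 normalized counts (SD, n = 5 each). *Dpp4*, a peptidase that trims the *Cxcr3* ligands, measured -0.38 and did not pass (adjusted p = 0.14), but was lower with median scaling (-0.64, adjusted p = 0.018) and quantile normalization (-0.63, adjusted p = 0.032).

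The genes whose pattern over the 10 tumors was most like each of the 6 were sought among 576 endogenous genes whose mean reached 20 normalized counts, by the same root mean square difference. Among the nearest to *Cxcl9* were the Toll-like receptor *Tlr6* (0.19) and *Klrk1* (0.20), where the median over all 576 was 0.48. *Cxcl10* was nearest to *Irgm2* (0.23), an interferon-inducible GTPase, *Cd69* (0.25), an early activation antigen, and *Usp18* (0.25), an interferon-induced protease, with a median of 0.53. *Cxcl11* was nearest to the interferon-stimulated gene *Isg15* (0.17), then *Usp18* (0.18) and *Irgm2* (0.19), with a median of 0.48. *Cxcl10* and *Cxcl11* shared *Usp18* and *Irgm2* among their nearest.

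*Cxcr3* was nearest to *Pvr* (0.22), the CD155 ligand of NK and T cell receptors, *Plaur* (0.24), the urokinase receptor, and *Creb5* (0.24), a transcription factor, with a median of 0.55. *Cxcl16* was nearest to *Ctss* (0.13), the lysosomal protease cathepsin S, *Ccl5* (0.17), a T cell chemoattractant, and *Cd68* (0.17), with a median of 0.44. *Cxcr6* was nearest to *Slc11a1* (0.27), a metal transporter of phagocytes, the Fc receptor *Fcgr4* (0.31) and the complement gene *C2* (0.31), with a median of 0.83. No T cell receptor gene was among the nearest 3 of either receptor. The measure counts the difference between the groups, which was 0.71 to 0.93 for *Cd3d*, *Cd3e* and *Cd3g* and 1.70 for *Cxcr6*. For *Cxcr6* their absence therefore says nothing of the order of tumors within a group. These values describe likeness over 10 tumors that share the 2 groups.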

How the data were processed

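Tumor RNA (100 ng) was hybridized to the nCounter panel, and the authors deposited the probe signal as normalized counts, made in nSolver by scaling to the geometric mean of 20 reference genes. A subtracted background and a floor of 1 were seen in the values, and in every tumor 100% of values under 150 lay within 0.1 of a step of its factor. Counts before background subtraction were not used here, so no counting error is given. From the deposited signal, log2(value + 1) was compared over all 770 genes, *Siah2* KO minus WT, with limma 3.58.1 in R 4.3.3, two-sided, with Benjamini-Hochberg adjustment over the 770. Fold changes are on this scale and understate low genes. Named genes were the 6 members, the 3 genes nearest to each, those that passed in the interferon gamma and CXC lists, up to 4 of each other list by size, and the reference genes of the differences within tumors. The members and all lists, those for lymphocytes, proteases and cell types included, were chosen with earlier results of these data known. Some genes, and 1 of the 8 differences within tumors, are not reported here. Steps were tested on simulated data. Alternatives changed the scaling, the pseudocount, the floor, the filter, the probes, the test, the replicate block and the tumors. Plots used Python 3.11.15 and matplotlib 3.10.9.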

Additional observations from a re-analysis of the deposited data

Results flagged for a closer look

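*Cxcr3* relative to *Cd3d*, *Cd3e* and *Cd3g* was 0.27 on the log2 scale in WT replicate 3 and 0.86 to 0.99 in the other 4 WT tumors. The gap from this tumor to the nearest was 0.812 of the whole range of the group, above the Dixon critical value for 5 samples. In all, 28 groups of values were looked at this way and 1 stood out, where chance gives about 1 in 20. Without this tumor the difference, *Siah2* KO minus WT, was 0.12 (exact permutation p = 0.55, adjusted p = 0.71) in place of 0.25.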

How the results depend on the processing

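The count of genes at an adjusted p under 0.05 was 316, and 95 with positive control scaling (60 higher, 35 lower). Of the calls 76.3% were higher in *Siah2* KO, 52.1% with median scaling and 45.8% with quantile normalization. The call of *Cxcl9* was lost with median scaling (0.52), quantile normalization (0.45) and positive control scaling (0.62). That of *Cxcl11* was lost with median scaling (0.43), quantile normalization (0.38), positive control scaling (0.53), a floor of 20 (0.69) and the methods' t-test (0.69, adjusted). *Cxcr3* (0.90) and *Cxcl16* (0.68) lost theirs with positive control scaling. That scaling took the control values as free of the tumor's scaling factor, which was not tested. For the 8 tumors whose numbers occur in both groups, *Cxcl9* was 0.86 and *Cxcl11* 0.73, and neither passed with or without the replicate number as a block. The block gave 235 genes against 232 without it. It took the SE of *Cxcr6* from 0.29 to 0.14, and that of *Cxcl16* from 0.187 to 0.197. The adjusted p of *Cxcl10* went from 0.11 to 0.051 (limma). The correlations of deviations of tumors with the same number were 0.04, 0.05, 0.17 and 0.35, and each tumor correlated best with its own number. The numbers were not taken as pairs in the main results, and whether they mark shared handling was not tested. With each tumor left out in turn, *Cxcl9* was between 0.63 and 0.92, *Cxcl11* between 0.50 and 0.84, *Cxcr6* relative to *Cxcr3* between 0.50 and 0.77, relative to *Cxcl16* between 0.76 and 1.04 and relative to *Cd3d*, *Cd3e* and *Cd3g* between 0.79 and 1.05. The count of genes ran from 268 (WT replicate 3 left out) to 334 (KO replicate 6 left out). *Cxcl10* passed neither under the 11 other alternatives nor without any single tumor, with an adjusted p between 0.051 (replicate block) and 0.55. At the methods' threshold without adjustment, the t-test gave 379 genes. The cause of these changes was not tested. The 5 tumors in each group limit the precision.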

Other observations

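Other cell types of the tumors moved in their own ways beside the chemokine genes. Of 5 measured fibroblast genes, 4 fell and 1 rose in *Siah2* KO tumors, with a median log2 difference of -0.74 and a summed level of 16865 to 21688 normalized counts in WT and 10964 to 13076 in KO, without overlap. *Fap*, the fibroblast activation protein, fell by 1.97, *Pdgfrb*, a growth factor receptor, by 0.996 and the collagen *Col3a1* by 0.74, while *Thy1*, which T cells also carry, rose by 0.71. Of the 5, 2 were lower with positive control scaling, *Fap* and *Pdgfrb*, and 0 were higher. Of 4 measured endothelial genes 1 rose, *Pecam1* (0.88), 1 fell, *Cdh5* (-0.45), and 2 did not pass, with a median of -0.38 and a sum of 609 to 716 in WT and 615 to 706 in KO. With median scaling and with quantile normalization 1 endothelial gene was higher and 3 were lower, and with positive control scaling 0 were higher and 0 lower.

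Of 4 measured neutrophil genes, *Csf3r*, the receptor of granulocyte colony-stimulating factor, rose and 3 did not pass, with a median of 0.86 and a sum of 213 to 262 in WT and 232 to 617 in KO. No neutrophil gene was higher with positive control scaling, where *Csf3r* was 0.79 (adjusted p = 0.12, limma). All 6 B cell genes had means under 20 normalized counts, with a median log2 difference of 0.22 (-0.04 with median scaling) and a sum of 17.6 to 26.5 in WT and 21.4 to 54.5 in KO. Of 7 melanoma genes 2 were on the panel, so the cancer cell content could not be read from its defining genes *Mlana*, *Pmel*, *Tyr*, *Dct* and *Mitf*. *S100b* fell by 2.39, from 14.6 to 1.72 normalized counts, and *Mcam* measured -0.17 and did not pass, although it was lower with median scaling and quantile normalization, with a median of -1.28 and a sum of 129 to 169 in WT and 98.5 to 161 in KO.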
